A study of Homo sapiens with 6 samples.

Results

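The genes described are 10 that hold oral keratinocytes together or mark their drift toward a mesenchymal state: the classical cadherins CDH1, CDH2 and CDH3, the catenins CTNNA1, CTNNB1 and CTNND1, the mesenchymal genes VIM and FN1, and the transcription factor genes ZEB1 and SNAI2. They were taken by symbol, and all 10 were found among the 58735 genes of the expression table. The table compared HOK-16B cells, an immortalized line of human oral keratinocytes, under 2 conditions: 3 libraries from cells treated with cannabidiol (CBD), a cannabis plant compound that does not intoxicate, and 3 from cells given the vehicle excipient. By the series' own description both groups received an inflammatory stimulus after the pretreatment. The labels used here name no stimulus, dose or time, and no unstimulated cells were analysed here, so each difference is CBD against vehicle within stimulated cells of a single line. The free-text description counts the line number up from sample to sample, while title and cell line tag give HOK-16B throughout.

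Classical cadherins are membrane proteins that join neighbouring epithelial cells by binding each other across the gap. Inside the cell, p120-catenin (CTNND1) keeps the cadherin at the surface, and beta-catenin (CTNNB1) ties its tail to alpha-catenin (CTNNA1), which grips actin; beta-catenin set free from the junction also serves Wnt signalling in the nucleus. In an epithelial-mesenchymal transition (EMT), E-cadherin (CDH1) is typically lost under repressors such as ZEB1 and the SNAI2 product SLUG, while N-cadherin (CDH2), vimentin (VIM) and fibronectin (FN1) appear. Basal oral keratinocytes normally carry P-cadherin (CDH3) beside E-cadherin, and SLUG is also made by normal basal keratinocytes.

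Levels are given as FPKM, the fragments counted in a gene per kilobase of its exons and scaled to library depth, so they can be set beside each other between genes. Whole fragments could be recovered from these values, and the libraries held 18213784 to 22158614 of them. CBD libraries resembled each other more than vehicle libraries did. On the first principal component, which took 47.7% of the variance, CBD libraries scored -12.7 to -10.3, while vehicle replicates 1 to 3 scored 25.1, -0.739 and 9.36. The mean transcript GC content per fragment followed the same split, with 50.7% to 50.8% in CBD libraries and 49.58%, 50.35% and 49.99% in vehicle replicates 1 to 3. Because GC content moved with the groups, each difference was refitted after a smooth trend of expression on transcript GC had been taken out of the libraries (called GC trend removed). The median coefficient of variation over tested genes was 4.80% among CBD and 8.71% among vehicle libraries. The labels do not state whether replicates came from separate cultures. The p-values therefore speak of the scatter among these libraries, and that scatter may be technical.

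CDH3 and CDH1, the 3 catenins, SNAI2 and FN1 were abundant in both groups, while VIM, ZEB1 and CDH2 were scarce. CDH3, CDH1, CTNNA1 and CTNND1 lay between the 92.5 and the 95.3 percentile of level among the 12517 genes with a mean of at least 1 FPKM, CTNNB1 at 89.0, SNAI2 at 84.9 and FN1 at 77.0. In both groups the order by mean ran CDH3, CDH1, CTNNA1, CTNND1, CTNNB1, SNAI2, FN1, VIM, ZEB1 and CDH2, and within a group no library of a gene reached the next gene above it; CDH3 and CDH1 came closest, at 51.68 and 51.54 FPKM in vehicle replicate 1. VIM stood at the 10.2 percentile, and ZEB1 and CDH2 lay below 1 FPKM in each library and were not part of the test across genes. None of the 8 tested members passed limma at a Benjamini-Hochberg adjusted p under 0.05, where 0.352% of all tested genes did (0.256% higher and 0.0959% lower). At an unadjusted p under 0.05 in limma there were 2, CTNNB1 and FN1, both lower with CBD, against 31.4% of all tested genes (15.4% higher and 16% lower). Limma-voom on the recovered fragments called 1, FN1, lower with CBD, as it did 6.68% of all genes in that direction, 7.26% as higher and 13.9% in all. In 3 members, CTNNA1, CTNNB1 and FN1, each CBD library lay below each vehicle library, and in 0 above; among all tested genes 21.9% lay wholly lower, 18.7% wholly higher and 40.7% either way. All 8 members differed by less than 0.25 in log2(FPKM + 1), as did 81% of all genes, with 6 below 0 and 2 above. These shares do not set the members apart from other genes. The added 1 shrinks the differences of low genes, members and others alike. VIM differed by more than 0.25 on other scales, at -0.26 with 0.1 added instead and -0.295 by limma-voom (limma adjusted p = 0.391 and limma-voom adjusted p = 0.2735). In bulk RNA, fewer cells of a kind and less RNA per cell cannot be told apart.

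**Figure D1:**
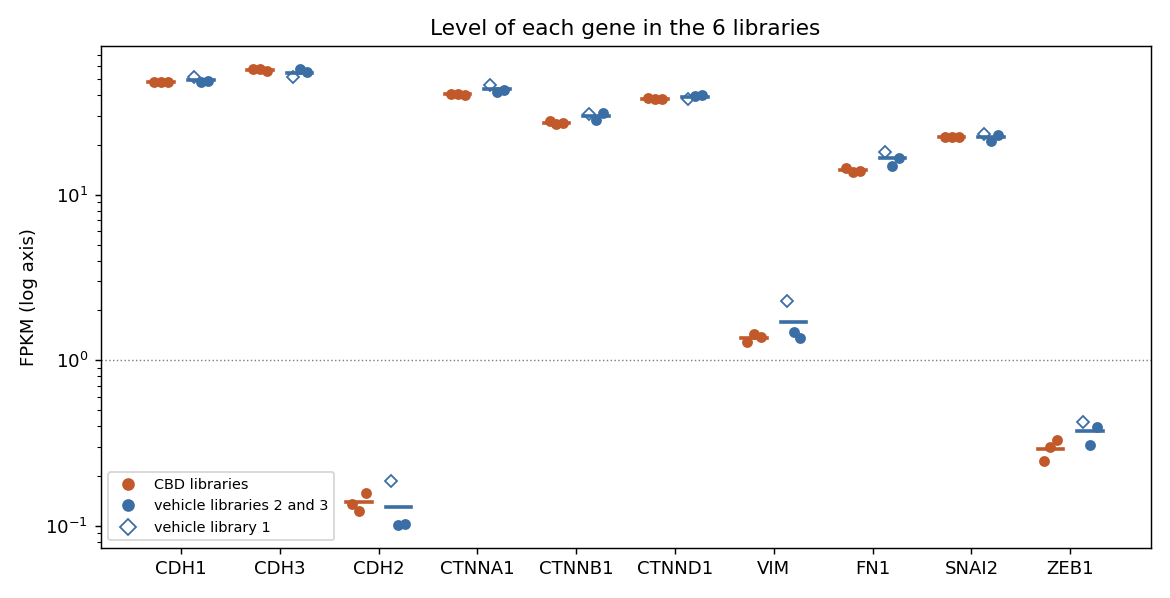
FPKM of the 10 genes in each library on a log axis, with CBD libraries (orange) left of vehicle libraries (blue; vehicle replicate 1 as an open diamond) and bars at the group means. The dotted line at 1 FPKM is the level for testing; CDH2 and ZEB1 lie below it, VIM just above it, and the other 7 genes lie between 13.7 and 57.7 FPKM.

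CDH3 and CDH1, which encode P-cadherin and E-cadherin, were the most abundant of 16 classical and related cadherin genes looked at, and neither changed detectably. CDH1 had 48.0, 47.8 and 48.1 FPKM in CBD replicates 1 to 3, against 51.5, 48.1 and 48.6 FPKM in vehicle replicates 1 to 3. The groups overlapped, since CBD replicate 3 lay just above vehicle replicate 2, and the 3 CBD values had a coefficient of variation of 0.340%. The fitted log2(FPKM + 1) difference of CDH1 was -0.04 ± 0.05 (SE), with a 95% interval of -0.15 to 0.07 (limma adjusted p = 0.545). CDH3 had 57.7, 57.3 and 55.8 FPKM in CBD libraries, against 51.7, 57.7 and 54.8 FPKM in vehicle libraries. Vehicle replicate 1 was the lowest of all and vehicle replicate 2 fell among the CBD values. Its log2 difference was 0.06 ± 0.05 (SE; 95% interval -0.07 to 0.18; limma adjusted p = 0.483), and it lay on the other side of 0, at -0.03, with the GC trend removed.

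CDH1 and CDH3 are neighbours on chromosome 16, both read from the plus strand. CDH3 spans chr16:68636189-68722616 and CDH1 chr16:68737225-68835548 (GENCODE 29 gene spans on GRCh38), with 14608 bases between them. The 2 genes ran in opposite directions across the 6 libraries: log2 levels correlated at r = -0.938, a description over libraries of which vehicle replicate 1 holds the highest CDH1 and the lowest CDH3. CDH3 made up 54.6%, 54.6% and 53.7% of the summed CDH1 and CDH3 FPKM in CBD libraries, against 50.1%, 54.5% and 53.0% in vehicle libraries. The share was 54.3% ± 0.515 with CBD and 52.5% ± 2.27 with vehicle (SD, n = 3 each; two-sided exact permutation p = 0.2, where 3 against 3 cannot go below 0.1). The difference of 1.76 percentage points was 0.528 without vehicle replicate 1 and 0.0718 with the GC trend removed. Non-coding genes on the opposite strand share 11.1% of CDH3 exon bases (AC126773.2) and 5.62% of those of CDH1 (AC099314.1), at a mean of 0.207 and 0.209 FPKM. The summed level of the pair was 104.9 ± 0.922 FPKM with CBD and 104.2 ± 1.43 FPKM with vehicle (SD, n = 3 each).

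CDH2, the N-cadherin gene of mesenchymal and neural cells, gave only a trace. It had 0.135, 0.122 and 0.157 FPKM in CBD libraries, against 0.186, 0.101 and 0.103 FPKM in vehicle libraries. These rest on 16, 14 and 16 fragments with CBD and on 21, 11 and 10 with vehicle. The groups overlapped, with vehicle replicate 1 highest, and limma-voom over all genes with at least 10 fragments gave a log2 difference of 0.11 with a 95% interval of -0.74 to 0.96 (adjusted p = 0.909) and so leaves room for a difference in either direction. Of 16 cadherin genes looked at, the CDH1 and CDH3 pair held 88.3% ± 0.511 of the summed FPKM with CBD and 88.8% ± 0.171 with vehicle (SD, n = 3 each).

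The 3 catenins had CBD means at 90.2% to 96.9% of the vehicle means, and none passed the test. Alpha-catenin CTNNA1 (chr5:138610967-138935034, plus strand) had 40.5, 40.6 and 40.0 FPKM in CBD libraries, against 46.0, 41.8 and 42.7 FPKM in vehicle libraries. Each CBD value lay below each vehicle value. The log2 difference of CTNNA1 was -0.11 ± 0.05 (SE; 95% interval -0.22 to 0.01; limma adjusted p = 0.198). It was -0.06 with the GC trend removed and -0.07 without vehicle replicate 1.

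CTNNB1 (chr3:41194741-41260096, plus strand), the beta-catenin gene, had 27.8, 26.6 and 27.0 FPKM in CBD libraries, against 30.8, 28.4 and 31.0 FPKM in vehicle libraries. The groups did not overlap, and vehicle replicate 2 was the vehicle library nearest to CBD. CTNNB1 averaged 27.1 ± 0.615 FPKM with CBD and 30.1 ± 1.44 FPKM with vehicle (SD, n = 3 each), so that the CBD mean was 90.2% of the vehicle mean. The log2 difference was -0.14 ± 0.05 (SE; 95% interval -0.26 to -0.02; unadjusted p = 0.028, limma adjusted p = 0.120). It was -0.08 with the GC trend removed (limma adjusted p = 0.330) and -0.18 without vehicle replicate 2, where it passed (limma adjusted p = 0.0442) along with 18.8% of all genes (8.66% lower); over 16 other settings the adjusted p ran from 0.0442 to 0.330. CTNND1 (chr11:57753243-57819546, plus strand), for p120-catenin, had 38.4, 37.7 and 37.7 FPKM in CBD libraries, against 38.0, 39.3 and 40.1 FPKM in vehicle libraries. The groups overlapped through CBD replicate 1 and vehicle replicate 1. Its log2 difference was -0.04 ± 0.04 (SE; 95% interval -0.15 to 0.06; limma adjusted p = 0.514), and 0.01 with the GC trend removed.

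Set against the cadherins of the same library, the catenin messages sat in a narrow range. CTNNA1 came to 0.383, 0.386 and 0.385 per unit of summed CDH1 and CDH3 in CBD libraries, against 0.446, 0.395 and 0.413 in vehicle libraries. CTNNB1 came to 0.263, 0.253 and 0.260 in CBD libraries, against 0.299, 0.268 and 0.2995 in vehicle libraries. CTNND1 came to 0.363, 0.359 and 0.363 in CBD libraries, against 0.368, 0.372 and 0.388 in vehicle libraries. For each catenin the CBD ratios lay below the vehicle ratios, with vehicle replicate 1 or 2 nearest to them. For CTNND1 the nearest values were 0.363 and 0.368, and its FPKM overlapped between groups. With the GC trend removed the log2 difference of CTNND1 was 0.01. Among all tested genes 21.9% lay wholly lower in FPKM. No such share was computed for ratios to summed CDH1 and CDH3, the denominator that the catenin ratios have in common. JUP, which encodes plakoglobin, the close relative of beta-catenin that binds cadherin tails and also serves desmosomes, lay the other way. JUP had 259.5, 257.9 and 250.4 FPKM in CBD libraries, against 194.1, 223.5 and 212.4 FPKM in vehicle libraries (log2 difference 0.29 ± 0.06, SE; limma adjusted p = 0.0633), and 0.08 with the GC trend removed. As deposited, JUP was thus 9.44 ± 0.223 times CTNNB1 with CBD and 7.01 ± 0.798 times with vehicle (SD, n = 3 each). The GC content is 61.9% for JUP and 46.1% for CTNNB1. With the GC trend removed the log2 differences of JUP and CTNNB1 were 0.08 and -0.08, against 0.29 and -0.14 as deposited. The catenin and JUP ratios were chosen after the values were seen and carry no test. None of them was recomputed with the GC trend removed.

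**Figure D2:**
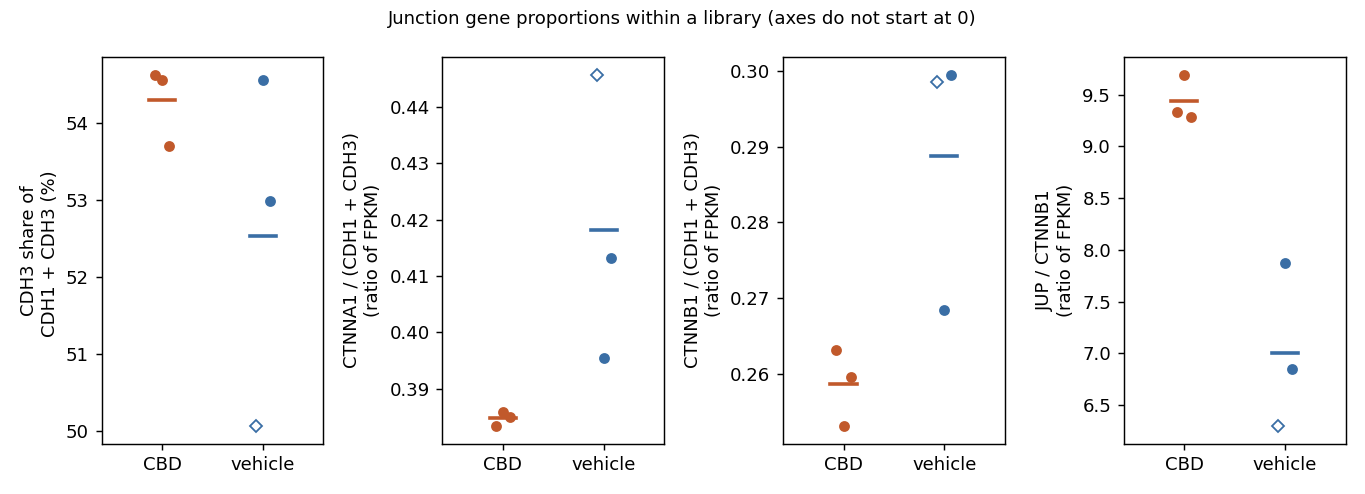
Ratios of FPKM within each library, CBD (orange) left of vehicle (blue; vehicle replicate 1 as an open diamond), with bars at group means: the CDH3 share of CDH1 plus CDH3 in percent, CTNNA1 and CTNNB1 per summed CDH1 and CDH3, and JUP per CTNNB1. The CDH3 share overlaps between groups (54.3% and 52.5% on average). The 2 catenin ratios lie lower with CBD, and JUP per CTNNB1 lies higher (9.44 and 7.01). All values are as deposited, with no GC trend removed, and the axes do not start at 0.

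The mesenchymal genes VIM and FN1 both had lower means with CBD, at very different levels. FN1 (chr2:215360440-215436172, minus strand) encodes fibronectin, a matrix protein that epithelial cells also secrete. It had 14.49, 13.69 and 13.95 FPKM in CBD libraries, against 18.15, 15.01 and 16.56 FPKM in vehicle libraries. No CBD library reached the lowest vehicle library, replicate 2. FN1 averaged 14.0 ± 0.410 FPKM with CBD and 16.6 ± 1.57 FPKM with vehicle (SD, n = 3 each), a CBD mean at 84.7% of the vehicle mean. Its log2 difference of -0.22 ± 0.07 (SE; 95% interval -0.39 to -0.05) had an unadjusted p of 0.0178 in limma and an adjusted p of 0.102, and 24.9% of all tested genes differed by at least as much in size. FN1 lay lower in all 16 other settings (-0.29 to -0.16), and it was -0.20 with the GC trend removed. It passed in limma-voom on the recovered fragments (adjusted p = 0.0436, or 0.035 over genes with at least 10 fragments) and in limma without vehicle replicate 2 (0.0309), the highest adjusted p over these settings being 0.267.

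FN1 and CTNNB1, the 2 members with the smallest p, had correlated log2 levels across the 6 libraries (r = 0.954, a description). CTNNA1 ran as close to FN1 (r = 0.964). The proximal promoters of FN1 and CTNNB1 are shown because these 2 genes had the smallest p and each has a single promoter entry. Each is the 250 bases before the RefSeq transcription start on GRCh38.p14, 5′ to 3′ on the gene's strand, with capitals marking TGACGTCA, the cAMP response element (the same on both strands), and TATAA or its reverse TTATA, the core of a TATA box:
FN1 (chr2:215436069-215436318, minus strand): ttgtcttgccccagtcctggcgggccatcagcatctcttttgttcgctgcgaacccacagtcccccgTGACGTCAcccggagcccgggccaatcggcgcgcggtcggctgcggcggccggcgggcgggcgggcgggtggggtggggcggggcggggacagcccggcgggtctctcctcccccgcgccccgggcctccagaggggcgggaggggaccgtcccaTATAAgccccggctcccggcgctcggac
CTNNB1 (chr3:41199255-41199504, plus strand): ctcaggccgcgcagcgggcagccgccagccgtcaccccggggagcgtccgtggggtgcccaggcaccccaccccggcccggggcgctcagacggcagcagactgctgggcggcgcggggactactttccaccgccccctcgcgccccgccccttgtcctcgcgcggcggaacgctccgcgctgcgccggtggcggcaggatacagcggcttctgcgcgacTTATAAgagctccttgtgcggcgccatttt
FN1 holds a TATAA that begins 28 bases before the start, and CTNNB1 holds the 2 overlapping forms TTATA and TATAA that begin 30 and 29 bases before it. Among 35116 RefSeq promoters of this length 18.9% hold TATAA or TTATA. FN1 also holds TGACGTCA, 183 bases before the start, as 1.65% of promoters do. Over the 16 promoters listed for 6 members, TGACGTCA was in 2 (FN1 and 1 of the 4 of CTNNA1) and TATAA or TTATA in 7. These 2 motifs were chosen after the sequences were read. CAGGTG or its reverse CACCTG, the E-box that ZEB1 and SLUG bind, was searched on both strands in the same 16 promoters (of CDH2, CTNNA1, CTNNB1, VIM, FN1 and ZEB1). It was in 2 of them, both among the 7 of ZEB1, while 17.5% of all promoters hold it. A match describes letters only.

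VIM (chr10:17228259-17237593, plus strand) encodes vimentin, the intermediate filament of mesenchymal cells. It had 1.29, 1.43 and 1.39 FPKM in CBD libraries, against 2.27, 1.48 and 1.36 FPKM in vehicle libraries. Vehicle replicate 1 stood above all other libraries, and without it the remaining libraries of the groups overlapped. The log2 difference of VIM was -0.18 ± 0.13 (SE; 95% interval -0.49 to 0.14; limma adjusted p = 0.385) with all libraries and -0.03 without vehicle replicate 1. The counts were 148 to 171 fragments in CBD and 138 to 268 in vehicle libraries. VIM per CDH1 came to 0.0286 ± 0.00154 with CBD and 0.0343 ± 0.00859 with vehicle (SD, n = 3 each; two-sided exact permutation p = 0.4, smallest possible 0.1), with a difference of -0.00572, or -0.000828 without vehicle replicate 1.

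**Figure D3:**
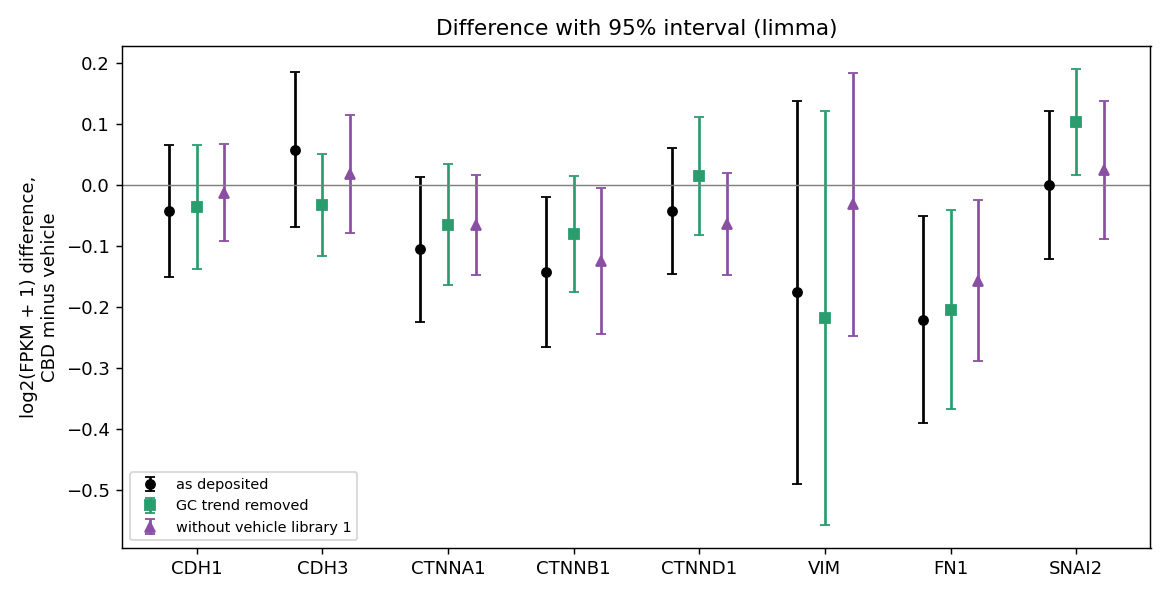
Log2(FPKM + 1) difference, CBD minus vehicle, of the 8 tested genes with 95% intervals from limma: as deposited (black circles), with the GC trend removed (green squares) and without vehicle replicate 1 (purple triangles). FN1 lies lowest as deposited (-0.22) and its interval is below 0 in all 3; CDH3 and CTNND1 change side with the GC trend removed.

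The 2 transcription factor genes differed sharply in level, and neither changed detectably. SNAI2, whose product SLUG represses CDH1 and is also part of the basal keratinocyte program, had 22.5, 22.3 and 22.4 FPKM in CBD libraries, against 23.2, 21.0 and 22.9 FPKM in vehicle libraries. All 3 CBD values fell inside the vehicle range. The CBD mean was 22.4 ± 0.0753 FPKM and the vehicle mean 22.4 ± 1.16 FPKM (SD, n = 3 each). The log2 difference of SNAI2 was 0.00055 ± 0.05 (SE; 95% interval -0.12 to 0.12; limma adjusted p = 0.995). With the GC trend removed it was 0.10 (95% interval 0.02 to 0.19; unadjusted p = 0.0262, limma adjusted p = 0.216), on the same side of 0 and larger.

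ZEB1 (chr10:31318495-31529814, plus strand), a zinc finger repressor of epithelial genes, had 0.2471, 0.2997 and 0.3306 FPKM in CBD libraries, against 0.425, 0.3055 and 0.3948 FPKM in vehicle libraries. CBD replicate 3 lay above vehicle replicate 2, so the groups overlapped. These are 51, 60 and 59 fragments with CBD and 84, 58 and 67 with vehicle. Limma-voom over genes with at least 10 fragments gave a log2 difference of -0.36 with a 95% interval of -0.82 to 0.10 (adjusted p = 0.339). ZEB1 shares 366 exon bases, 4.23% of its exons, with ZEB1-AS1 on the opposite strand (mean 1.29 FPKM), and the strand setting is not known here. VIM likewise shares 12.4% of its exons with VIM-AS1 (mean 0.283 FPKM), and at these low levels reads from the opposite strand cannot be told apart.

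MicroRNAs of the miR-200 family and miR-205 are known to silence ZEB1 in epithelial cells. They were not measured, but the host transcripts of 3 of them were. MIR200CHG, host of miR-200c and miR-141, had 3.47, 4.44 and 4.57 FPKM in CBD libraries, against 1.63, 2.60 and 3.06 FPKM in vehicle libraries. The groups did not overlap, and the log2 difference of MIR200CHG was 0.61 ± 0.17 (SE; limma adjusted p = 0.0834), or 0.51 with the GC trend removed. It rests on 29, 36 and 33 fragments with CBD and 13, 20 and 21 with vehicle, and limma-voom did not call it (adjusted p = 0.108). MIR205HG, the host of miR-205 and named here after its values were seen, was abundant in both, at 81.8 ± 3.36 FPKM with CBD and 78.2 ± 7.3 FPKM with vehicle (SD, n = 3 each; limma adjusted p = 0.565). The mature sequences, 5′ to 3′ from RefSeq (GRCh38.p14) with the seed (bases 2 to 8) in capitals, show which microRNAs these hosts carry:
hsa-miR-200c-3p (chr12:6963742-6963764): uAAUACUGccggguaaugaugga
hsa-miR-141-3p (chr12:6964155-6964176): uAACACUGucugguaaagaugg
hsa-miR-205-5p (chr1:209432166-209432187): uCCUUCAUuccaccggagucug
The 3 seeds all differ from each other, although miR-200c and miR-141 lie in the same host transcript.

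Other genes of the junction and of EMT were read from 7 lists with 97 genes beside the members, which were chosen with earlier results of these data known. Of the 62 tested list genes, 0 passed limma over all genes, where 0.352% of all tested genes did. At an unadjusted p under 0.05 in limma there were 22, against 31.4% of all tested genes. Limma-voom, at 13.9% of all genes, called 13 of the 62. The 16 tested adherens junction partners (of 20) went both ways: 5 were higher and 4 lower at an unadjusted p under 0.05 (all tested genes 15.4% and 16%). Limma-voom called 2 higher and 2 lower (all tested genes 7.26% and 6.68%). With the GC trend removed 1 was higher and 2 were lower at that level, where 8.22% and 10.1% of all genes were. Their median difference was -0.06, against -0.01 over all tested genes. Beside JUP, AJUBA, a LIM protein of the junction, had 61.9 ± 0.162 FPKM with CBD and 53.8 ± 3.58 with vehicle (limma adjusted p = 0.0850). VCL, for vinculin, which strengthens the link of alpha-catenin to actin, had 18.1 ± 0.496 FPKM with CBD and 21.0 ± 1.02 with vehicle (limma adjusted p = 0.0731). LIMA1, for the actin-bundling protein EPLIN, had 30.6 ± 0.545 FPKM with CBD and 36.8 ± 3.08 with vehicle (limma adjusted p = 0.0763). The log2 differences of AJUBA, VCL and LIMA1 were 0.20, -0.21 and -0.26, or 0.17, -0.18 and -0.15 with the GC trend removed. Values of these junction and beta-catenin genes are means with SD over 3 libraries each.

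Of 15 genes for beta-catenin turnover and partners 13 were tested. At an unadjusted p under 0.05 in limma 1 was higher and 2 were lower (all tested genes 15.4% and 16%). Limma-voom called 1 in each direction (all tested genes 7.26% higher and 6.68% lower). APC, the scaffold that marks beta-catenin for destruction, had 5.23 ± 0.0532 FPKM with CBD and 6.48 ± 0.625 with vehicle (limma adjusted p = 0.0763). The kinase gene GSK3B had 24.3 ± 0.656 and 27.5 ± 1.74 FPKM with CBD and vehicle (adjusted p = 0.110), BCL9L, a coactivator, had 14.9 ± 0.284 and 12.1 ± 1.89 FPKM (adjusted p = 0.110), and PYGO2, another coactivator, had 19.3 ± 0.379 and 16.9 ± 2.30 FPKM (adjusted p = 0.207), all by limma. With the GC trend removed the log2 differences were smaller, at -0.13 for APC, -0.07 for GSK3B, 0.06 for BCL9L and 0.06 for PYGO2, against -0.26, -0.17, 0.29 and 0.19 as deposited. The list then had 5 genes above 0 and 8 below, against 8 and 5 as deposited. Well-known beta-catenin target genes lay on both sides of 0, with 4 above and 1 below as deposited, and 1 above and 4 below with the GC trend removed. Of 9 listed and 5 tested, AXIN2 had 3.08 ± 0.120 FPKM with CBD and 1.98 ± 0.364 with vehicle (limma adjusted p = 0.0631), while CCND1, the cyclin D1 gene, had 31.1 ± 0.456 FPKM with CBD and 39.7 ± 3.56 with vehicle (limma adjusted p = 0.0604). MYC had 105.7 ± 3.15 FPKM with CBD and 103.5 ± 2.86 with vehicle, and ZNRF3 2.82 ± 0.129 with CBD and 2.69 ± 0.0819 with vehicle (limma adjusted p = 0.684 and 0.611). With the GC trend removed AXIN2 and CCND1 kept their sides, with log2 differences of 0.38 and -0.43, against 0.46 and -0.34 as deposited. MYC and ZNRF3, at 0.03 and 0.05 as deposited, changed side to -0.08 and -0.07. Limma-voom called AXIN2 higher and CCND1 lower (adjusted p = 0.0164 and 0.0148; over all settings 0.00791 to 0.209 and 0.00626 to 0.209).

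Epithelial identity factors had most of their members above 0: 10 of 12 tested lay higher with CBD, 4 at an unadjusted p under 0.05 in limma and 0 after adjustment. Of all tested genes 47.4% lay above 0 and 15.4% were higher at an unadjusted p under 0.05. The median of the list was 0.07, against -0.01 over all tested genes. Limma-voom called 3 of them higher, where it called 7.26% of all genes higher. The 2 below 0, ESRP1 and EPCAM, had log2 differences of -0.07 and -0.08, or 0.05 and -0.02 with the GC trend removed. Nearest to 0 were GRHL2, KLF5 and GRHL1, at 0.0075, 0.02 and 0.03. These 5 genes are named here after their values were seen. OVOL2, a zinc finger repressor of ZEB1, had 4.70 ± 0.498 FPKM with CBD and 3.49 ± 0.0773 with vehicle (SD, n = 3 each; limma adjusted p = 0.0633). ELF3, an epithelial ETS factor, had 1.74 ± 0.187 FPKM with CBD and 1.07 ± 0.169 with vehicle, and CRB3, for the polarity protein Crumbs, 14.8 ± 0.678 with CBD and 10.3 ± 2.38 with vehicle (SD, n = 3 each; limma adjusted p = 0.0720 and 0.0811). The median GC content of this list was 51.5%, against 48.9% over all tested genes, and with the GC trend removed the differences of OVOL2, ELF3 and CRB3 were 0.23, 0.29 and 0.29, against 0.34, 0.40 and 0.50 as deposited. Their limma adjusted p was then 0.196, 0.175 and 0.193. In that fit 10 of the 12 lay above 0, and 4 were higher at an unadjusted p under 0.05, where 8.22% of all genes were.

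Of the other EMT transcription factor genes only TCF3, TWIST2 and KLF8 of 11 reached a mean of 1 FPKM. Below it, SNAI1 had 15, 11 and 19 fragments with CBD and 6, 6 and 7 with vehicle. Limma-voom over genes with at least 10 fragments put SNAI1 at 1.07 (adjusted p = 0.201), FOXC2 at 1.95 and TWIST1 at 0.04. SNAI3, TCF4 and ZEB2 were at -0.59, -0.17 and -0.04 in that fit. These genes below the level tested are named here after their values were seen. TCF3, whose E proteins are widely expressed, had 28.8 ± 0.988 FPKM with CBD and 24.4 ± 2.05 with vehicle (SD, n = 3 each; limma adjusted p = 0.0898; log2 difference 0.23, or 0.02 with the GC trend removed). TWIST2 had 1.79 ± 0.324 FPKM with CBD and 1.89 ± 0.232 with vehicle, and KLF8 1.74 ± 0.104 with CBD and 1.74 ± 0.113 with vehicle (SD, n = 3 each; limma adjusted p = 0.778 and 0.986). Among 16 other mesenchymal-shift genes 11 were tested, with a median of -0.0087. At an unadjusted p under 0.05 in limma 1 was higher and 2 were lower (all tested genes 15.4% and 16%). With the GC trend removed 2 were higher and 4 lower at that level, where 8.22% and 10.1% of all genes were. SPARC, for a matrix glycoprotein, had 165.7 ± 9.06 FPKM with CBD and 148.8 ± 6.91 with vehicle (SD, n = 3 each; limma adjusted p = 0.141). Its log2 difference was 0.15, or 0.14 with the GC trend removed. TNC, for tenascin C, had 1.42 ± 0.0256 FPKM with CBD and 1.82 ± 0.143 with vehicle, and PDPN, for podoplanin, 7.81 ± 0.175 with CBD and 7.15 ± 0.291 with vehicle (SD, n = 3 each; limma adjusted p = 0.116 and 0.174). With the GC trend removed their log2 differences were -0.28 and 0.14, against -0.21 and 0.11 as deposited. Below the level tested, COL5A1 had 0.835 ± 0.137 FPKM with CBD and 0.583 ± 0.0886 with vehicle (SD, n = 3 each). Limma-voom over genes with at least 10 fragments put COL5A1 at 0.53 (adjusted p = 0.0497), ACTA2 at -0.26 and FAP at 0.14. That fit called 951 of 21965 genes higher. COL5A1, ACTA2 and FAP are named here after their values were seen. Of 13 further cadherins CDH24 and CDH13 were tested; CDH24 had 9.83 ± 0.650 FPKM with CBD and 8.77 ± 0.482 with vehicle, and CDH13 3.12 ± 0.292 with CBD and 3.34 ± 0.357 with vehicle (SD, n = 3 each; limma adjusted p = 0.171 and 0.567).

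**Figure D4:**
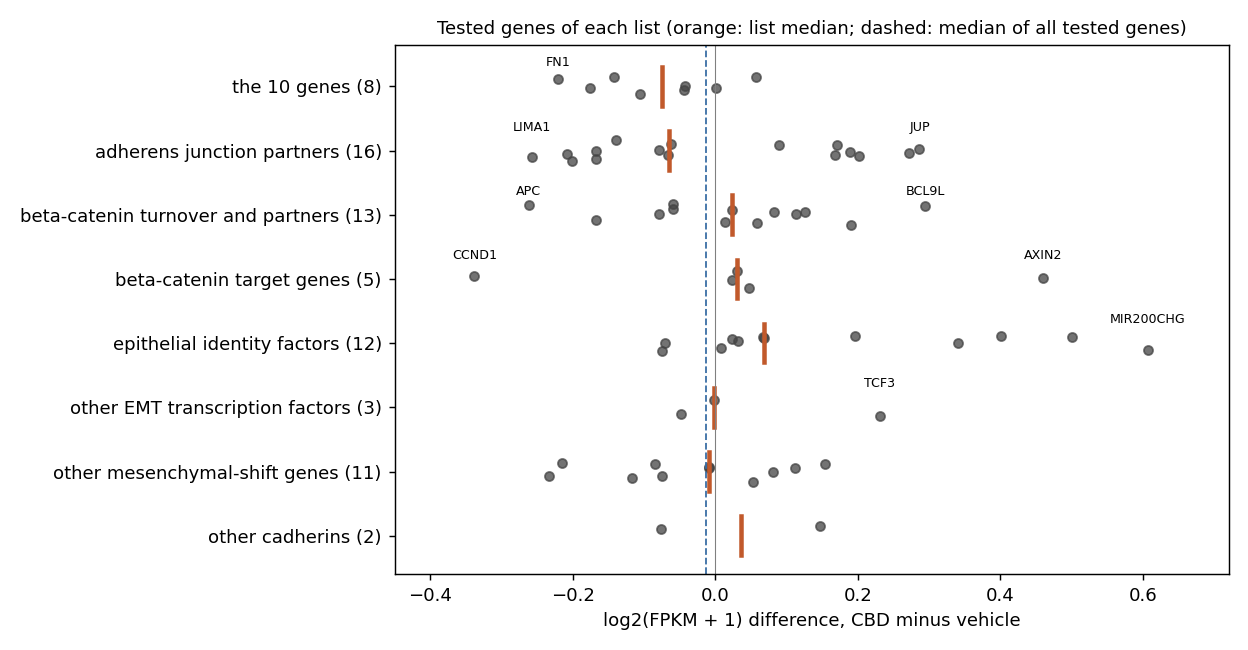
Log2(FPKM + 1) difference, CBD minus vehicle, of each tested gene (dots) in the 10-gene set and 7 related lists, with the number tested in brackets, list medians in orange and the median of all tested genes (-0.01) as a dashed line. The 10-gene set has its median at -0.07 and the epithelial identity factors at 0.07; named extremes are FN1 (-0.22), CCND1 (-0.34), AXIN2 (0.46) and MIR200CHG (0.61).

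The keratinocyte label held against its markers. All 7 keratinocyte markers were expressed, KRT5 at 3467 to 3649 FPKM in CBD and 2777 to 3275 FPKM in vehicle libraries. Of 8 markers of fibroblasts, cells rich in VIM and FN1, only COL1A1 reached a mean of 1 FPKM, at 8.66 to 8.71 FPKM in CBD and 6.69 to 7.52 FPKM in vehicle libraries. The other 7 stayed at or below 0.466 FPKM in every library, COL1A2 at 0.0349 to 0.0676 in CBD and 0.0274 to 0.0667 in vehicle libraries, and PDGFRA was listed at 0 throughout. The summed fibroblast level was 9.31 to 9.41 FPKM in CBD and 7.40 to 8.14 FPKM in vehicle libraries. This sum is almost wholly COL1A1, whose log2 difference was 0.25 as deposited and 0.07 with the GC trend removed (95% interval -0.02 to 0.16). The part of other cell types in the VIM and FN1 values was not tested. Endothelial markers summed to at most 0.312 FPKM in CBD and 0.285 FPKM in vehicle libraries. The 4 melanocyte markers summed to 1.414 to 1.603 FPKM in CBD and 1.02 to 1.53 FPKM in vehicle libraries. The 5 leukocyte markers summed to 2.19 to 3.09 FPKM in CBD and 2.13 to 3.11 FPKM in vehicle libraries. This leukocyte sum is almost wholly CD14, at 2.185 to 3.089 FPKM in CBD and 2.135 to 3.054 FPKM in vehicle libraries. TYR was listed at 0 throughout, and PTPRC at 0 in all libraries but CBD replicate 2.

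The genes whose log2 levels ran most like a member's across the 6 libraries were KIAA2026, TPP1 and PRKCI for CDH1 (r = 0.998, 0.998 and 0.997), NUP37, NLN and BMS1 for CTNNB1 (r = 0.998, 0.997 and 0.996), and EIF5, DLGAP5 and TGFBR2 for FN1 (r = 0.9995, 0.999 and 0.998). TGFBR2, a receptor for TGF-beta, averaged 22.7 FPKM with CBD and 26.9 FPKM with vehicle. With 6 libraries and 12517 genes, such values describe a similar order of libraries and no more. Vehicle replicate 1 was the highest library in 5 of the 8 tested members, CDH1 and FN1 among them, while CTNNB1 was highest in vehicle replicate 3.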

How the data were processed

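RNA sequencing values of 6 libraries of HOK-16B cells (3 CBD, 3 vehicle) were used. The authors deposited FPKM per Ensembl gene, made with HISAT2 2.0.5 and featureCounts 1.5.0-p3 per the submitters' processing notes; build, annotation and strand setting are not given in the sources used here. All 58735 identifiers were in GENCODE 29, which gave symbols, spans and exon lengths. Multiplied by exon length and a library constant, 100% of the FPKM values came out as whole fragments (tolerance 0.01), with 18213784 to 22158614 fragments per library; a floor of 3 fragments is 0.126 to 0.153 FPKM at 1 kb, for counting error only.

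Genes with a mean of at least 1 FPKM (12517) were fitted as log2(FPKM + 1) in limma 3.58.1 (R 4.3.3) with an intensity trend, two-sided, with Benjamini-Hochberg adjustment over all of them. Fold changes on this scale understate those of low genes. The GC trend was a loess curve (span 0.3) per library. Ratios used exact permutation tests over 20 splits. Only the main limma fit was tested on simulated counts, drawn with equal scatter in both groups and no GC trend. The libraries here differ from that on both points, so the simulation does not speak for them. Ratios, GC removal and limma-voom were not tested this way. Of 16 alternatives, limma-voom with at least 10 fragments was added after seeing the data. Every listed gene with 1 of the 4 smallest adjusted p in its list was named, and for CDH1, CTNNB1 and FN1 the 3 genes most alike; 1 gene that this rule names is not reported here. Members and lists were chosen with earlier results of these data known. Equal replicate numbers did not pair libraries, and no libraries agreed within sampling noise.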

Additional observations from a re-analysis of the deposited data

How the results depend on the processing

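Over 16 other settings the tested members kept direction and call in 118 refits, changed sign in 5 and newly passed in 4. The number of members called, 0, was 1 by limma-voom and 1 with at least 10 fragments (FN1 both times), and 0 to 2 when 1 library was left out; the 2, FN1 and CTNNB1, came without vehicle replicate 2. Genes called higher (32) numbered 427 at a mean FPKM of at least 5, 56 with median-ratio scaling, 2 with equal FPKM sums, 4 with the GC trend removed, 909 by limma-voom, 951 with at least 10 fragments, and 0 to 1267 when 1 library was left out. Genes called lower (12) numbered 305, 17, 2, 4, 836 and 837 in the same settings, and 0 to 1084 when 1 library was left out, the highest counts coming without vehicle replicate 2. Limma called 0 higher and 0 lower with no filter (4670 of 31746 genes at an unadjusted p under 0.05), 0 higher and 1 lower without the variance trend (3780), and 0 and 0 with the replicate block (3676); 0 were called without CBD replicate 1 (2594), CBD replicate 2 (2454) or vehicle replicate 3 (2943). The cause was not tested.

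With the GC trend removed 2 of 8 tested members and 17 of 62 tested list genes changed sign, as did 3541 of all genes. Among the named members and list genes these were CDH3 (-0.0326), CTNND1 (0.0144), CDH24 (-0.11), KLF8 (0.10), ESRP1 (0.05), ZNRF3 (-0.07) and MYC (-0.0848). SNAI2 was -0.015 with equal FPKM sums and -0.0413 to 0.0247 when 1 library was left out. KLF8 was 0.0077 with median-ratio scaling, 0.004 by limma-voom, 0.0037 with at least 10 fragments and -0.0245 to 0.0313 when 1 library was left out, and TWIST2 was -0.142 to 0.004.

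Same-numbered libraries did not deviate together (r = -0.003, 0.052 and 0.024), so the numbers give no pairing. With the replicate block 0 members were called, and the CDH3 share and VIM per CDH1 differed by 1.76 percentage points and -0.00572. CDH2, ZEB1, VIM and MIR200CHG rest on few fragments, which limits what their intervals can show.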
